A study of Sus scrofa with 12 samples.

Results

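The testis-specific serine kinases (TSSK) are a small family of protein kinases of the male germ line. The members described here were the rows of the deposited coding-gene table whose symbol was that of a TSSK kinase (TSSK1B, TSSK2, TSSK3, TSSK4 or TSSK6) or of TSACC, the co-chaperone of TSSK6. These made up 6 of the 21674 rows. Testes were taken from 12 castrated boars, 3 in each group, and sequenced after removal of ribosomal RNA. Ha and Hb were Hezuo (HZ) boars, a miniature breed with early puberty, aged 30 and 120 days, and La and Lb were Landrace (LC) boars of the same ages. Each library came from a separate animal, also across ages.

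TSSK kinases are made after meiosis, in spermatids, and persist in spermatozoa, where they phosphorylate proteins of the forming tail and of the condensing nucleus. Loss of TSSK1 and TSSK2 together, of TSSK3 or of TSSK6 leaves male mice infertile, and loss of TSSK4 lowers their fertility. TSKS is a scaffold and substrate of TSSK1 and TSSK2, and TSACC joins TSSK6 to HSP90, which that kinase needs for its activity.

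Levels are given as CPM, that is, estimated counts scaled to library size by TMM factors over the 12 libraries, and as the deposited FPKM where genes are compared with each other, since FPKM is per length. The estimated counts of coding genes came to between 17165519 (Hb3) and 23758931 (Ha1) per library. Differences were tested with the quasi-likelihood method of edgeR over the whole table, and p values were adjusted by Benjamini-Hochberg. Being called required an adjusted p under 0.05 together with a log2 fold change beyond 1 in either direction, where a fold change is the second group over the first. The smallest exact permutation p possible for 3 libraries against 3 is 0.1, so each adjusted p rests on the variance model fitted across genes.

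The 6 genes lay on 5 chromosomes of Sscrofa11.1. TSSK1B (NCBI gene 102159240) was annotated on chromosome 14 from 50937885 to 50938979, and TSSK2 (100156779) followed on the same chromosome from 50943017 to 50944093, with 4037 bp between them. TSSK3 (100628162) was on chromosome 6 from 88810023 to 88811559, within the spans of FAM229A and BSDC1. TSSK4 (100520622) was on chromosome 7 from 75094921 to 75104189, and its end overlapped TM9SF1. TSSK6 (100518240), with the shortest span at 822 bp, was on chromosome 2 from 58411122 to 58411943. It overlapped no other gene of the coding-gene table. TSACC (100622973) was on chromosome 4 from 93725672 to 93735029, where its end overlapped CCT3.

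Estimated counts that were not whole appeared in 11 of the 12 libraries for TSSK2, in 10 for TSSK4, in 9 for TSSK1B, in 6 for TSSK3 and in 4 for TSACC. For TSSK6 the counts were whole in all 12 libraries. TSSK1B and TSSK2 are paralogs, and TSSK3, TSSK4 and TSACC overlap other genes, so how reads were divided between such genes is uncertain. CCT3, which overlaps TSACC, had whole counts in every library. TSSK2 was not whole in Ha1 (11.74), La1 (23.86) and La2 (12.6), where TSSK1B had a count of 0. The source of the fractions was not tested. The libraries were prepared with dUTP, which marks the strand, but whether the counting used the strand is not given in the sources used here.

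**Figure D1:**
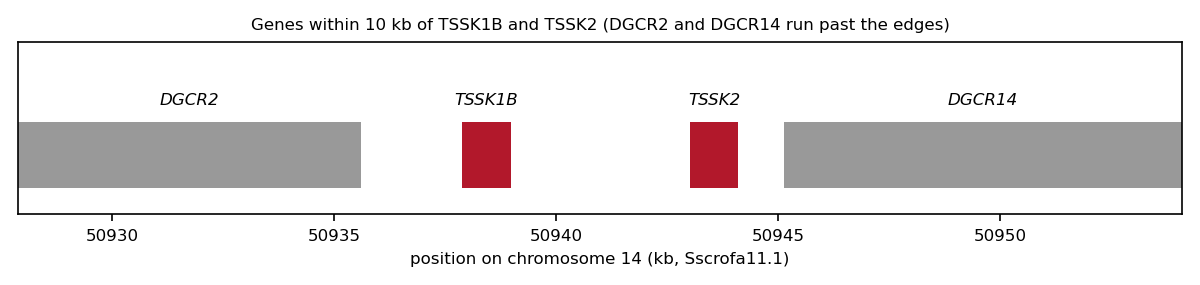
Map of chromosome 14 around TSSK1B and TSSK2, to scale, with the position in kb on the horizontal axis and each bar the annotated span of 1 gene. TSSK1B and TSSK2, in red, lie 4037 bp apart between DGCR2 and DGCR14.

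The comparison across age asked how the kinases differed between 30 and 120 days. In both breeds, all 6 members were called and higher at 120 days. Among all mRNAs tested in Ha vs Hb, 51.4% were called in either direction and 28.2% were called and higher at 120 days. In La vs Lb these shares were 47.6% and 27.5%. For every member, each 120-day library was above each 30-day library of its breed, which was so for 38.3% of the mRNAs tested in Ha vs Hb and for 38.0% in La vs Lb. All 6 members passed the filter on low counts in these comparisons, and the direction held under each scaling that was tried. TSSK1B, TSSK3, TSSK6 and TSACC passed only through their 120-day counts, as did TSSK2 in Ha vs Hb. Passing the filter is therefore no evidence for the change. In whole testis, more cells of a type and more RNA per cell cannot be told apart.

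TSSK1B, the porcine TSSK1, was at 0, 0.162 and 0.195 CPM in Ha1, Ha2 and Ha3 and at 117, 87.3 and 99.9 CPM in Hb1, Hb2 and Hb3. In LC boars it was at 0, 0 and 0.243 CPM in La1, La2 and La3 and at 92.0, 112 and 85.3 CPM in Lb1, Lb2 and Lb3. The gene had no count in 1 library of Ha and in 2 of La, whereas the 120-day libraries of both breeds overlapped each other. Its log2 fold change was 9.69 in Ha vs Hb (adjusted p = 5.40e-06) and 10.05 in La vs Lb (adjusted p = 5.31e-07). Without La3, the 1 library of La with a count, the latter had no upper bound, and its value of 14.01 was set by the prior count. These fits rested on 9 counts over the libraries of Ha and 6 over those of La, so that the scaled ratio of summed counts was 851 in HZ boars, with a 95% interval from 448 to 1863. In LC boars the ratio was 1095, with an interval from 503 to 2985. Intervals are exact (Clopper-Pearson) and cover counting error only. No SE is given for the fold changes with age of members other than TSSK4. For each of those members the SE fell below counting error in at least 1 breed. The adjusted p values of such fits come from the same statistic as the SE and may be too small.

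TSSK2, which acts with TSSK1 in late spermatids, was at 0.461, 0.242 and 0.234 CPM in Ha and at 678, 622 and 759 CPM in Hb, in order of replicate number. In LC boars the values were 1.02, 0.657 and 0.526 CPM in La and 440, 419 and 290 CPM in Lb. All 3 libraries of La were above all 3 of Ha, and all 3 of Lb were below all 3 of Hb, so that the breeds stood in opposite order at the 2 ages. The log2 fold change was 11.09 in Ha vs Hb (adjusted p = 1.65e-06) and 9.05 in La vs Lb (adjusted p = 7.61e-08). From 24 and 36856 counts, the scaled ratio was 2161 in HZ boars (95% interval 1452 to 3373). From 50 and 24223 counts it was 524 in LC boars (398 to 707). These intervals leave out the spread between animals and do not test the breeds against each other. By log2 fold change TSSK2 ranked 73 of the 16548 mRNAs tested in Ha vs Hb and 256 of the 16637 tested in La vs Lb.

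TSSK3, a kinase that PDPK1 can activate, was at 0.0768, 0.162 and 0.195 CPM in Ha and at 197, 130 and 209 CPM in Hb. The corresponding values were 0.0852, 0.0506 and 0.121 CPM in La and 134, 91.4 and 90.3 CPM in Lb. Every 30-day library had between 1 and 5 counts of TSSK3. At 120 days Lb1 was above Hb2, so the breeds overlapped. The log2 fold change was 10.24 in Ha vs Hb (adjusted p = 1.73e-06) and 10.17 in La vs Lb (adjusted p = 7.57e-08). The scaled ratios of summed counts were 1210 (95% interval 676 to 2425) and 1198 (550 to 3265).

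TSSK4, known to act on CREB and on the tail protein ODF2, differed from the other members in being detected well above a few counts at 30 days. It was at 5.38, 3.68 and 2.41 CPM in Ha and at 124, 100 and 92.1 CPM in Hb. In LC boars it was at 4.60, 3.54 and 3.48 CPM in La and at 79.4, 119 and 92.5 CPM in Lb. The estimated counts behind the 30-day values were between 62.3 (Ha3) and 140 (Ha1). The end of TSSK4 overlaps TM9SF1, which averaged 157 CPM in Ha and 145 CPM in La. Whether reads of TM9SF1 were counted for TSSK4 was not tested. None of the other members exceeded 1.02 CPM in any 30-day library. The log2 fold change of TSSK4 was 4.80 ± 0.31 (SE) in Ha vs Hb (adjusted p = 1.70e-05) and 4.68 ± 0.21 in La vs Lb (adjusted p = 3.63e-07). As ratios of summed counts, these were 27.5 (95% interval 24.4 to 31.0) and 24.9 (22.0 to 28.3).

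TSSK6, a kinase needed for the exchange of histones for protamines, was at 0.384, 0.323 and 0.428 CPM in Ha and at 524, 307 and 534 CPM in Hb. It was at 0.213, 0.354 and 0.162 CPM in La and at 278, 233 and 179 CPM in Lb. Hb2 was the lowest library of Hb and was still above Lb1, the highest of Lb. The log2 fold change was 10.23 in Ha vs Hb (adjusted p = 1.73e-06) and 9.93 in La vs Lb (adjusted p = 5.96e-08). The ratio of summed counts was 1162 (95% interval 809 to 1735) in HZ boars and 983 (605 to 1721) in LC boars.

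TSACC, the co-chaperone, was at 0, 0.202 and 0.117 CPM in Ha and at 28.8, 27.8 and 45.4 CPM in Hb. In LC boars it was at 0.170, 0.101 and 0.0810 CPM in La and at 15.3, 23.2 and 14.5 CPM in Lb. Hb3 was above the other libraries of Hb and Lb2 above the others of Lb, and the groups did not overlap at 120 days. The log2 fold change was 8.28 in Ha vs Hb (adjusted p = 2.29e-05) and 7.20 in La vs Lb (adjusted p = 8.02e-07). Without Ha2 the former was 9.06. On 8 counts at 30 days in each breed, the ratio of summed counts was 316 (95% interval 160 to 734) in HZ boars and 151 (76.2 to 350) in LC boars.

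**Figure D2:**
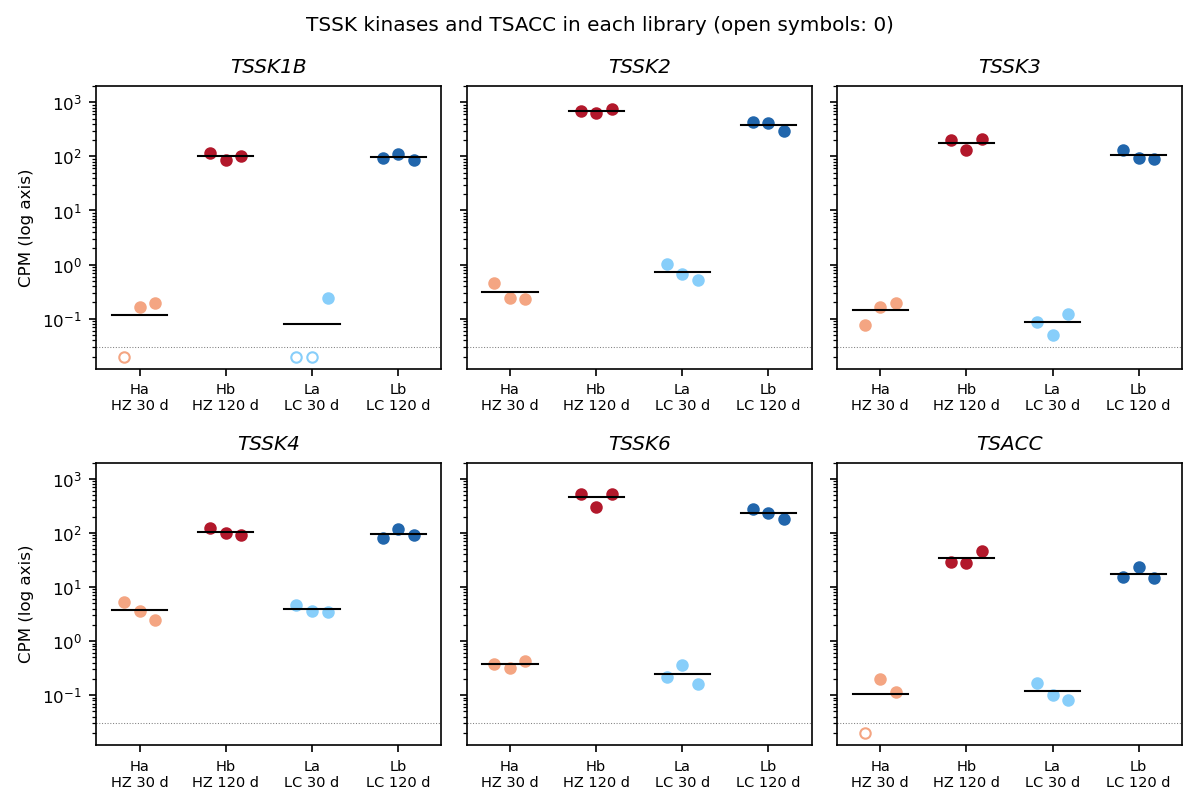
CPM of the 6 members in each of the 12 libraries on a log axis, by group; points are libraries, lines are group means, and open symbols under the dotted line are libraries at 0. TSSK4 sits near 4 CPM in Ha and La, where the other members are at or under 1.02 CPM.

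The next comparison set HZ against LC boars at 30 days. Of the 6 members, 2 passed the filter on low counts, TSSK2 and TSSK4, and neither was called by edgeR, where 7.62% of the 15648 mRNAs tested were called. At an unadjusted p under 0.05 there was 1, TSSK2, beside 36.4% of the mRNAs tested, and none was called by DESeq2 or limma. TSSK2 averaged 0.312 ± 0.129 CPM (SD, n = 3) in Ha and 0.735 ± 0.257 CPM in La. Its libraries in La were all above those in Ha, a pattern shown by 20.8% of the mRNAs tested. The estimated counts were 11.7, 6 and 5.82 in Ha and 23.9, 12.6 and 12.5 in La. TSSK2 thus passed the filter through La and would not have passed it through Ha alone. Passing the filter is therefore no evidence for the higher values in La. The log2 fold change of 1.21 ± 0.48 did not pass the test (adjusted p = 0.109), and ranged from 0.32 to 1.60 over the alternatives. In the edgeR fit without a filter on counts, the log2 fold change of TSSK2 was also 1.21 (adjusted p = 0.167). TSSK4 averaged 3.82 ± 1.49 CPM in Ha and 3.87 ± 0.63 CPM in La, with overlapping libraries and a log2 fold change of 0.0055 ± 0.32 (adjusted p = 0.993). The remaining 4 members had overlapping libraries at 30 days. In the fit without a filter on counts their log2 fold changes were between −0.70 (TSSK3) and 0.14 (TSACC), with adjusted p values of at least 0.495.

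Per length, the 30-day levels were lowest for TSSK1B, with a mean of 0.0900 FPKM in Ha and 0.0600 FPKM in La. TSSK4 was highest, at 1.69 ± 0.70 FPKM in Ha and 1.66 ± 0.26 FPKM in La, and ranked 10968 and 10987 of the 21674 rows. It was thus near the middle of the table, with 49.4% of the rows below it in Ha and 49.3% in La. The limit on reads of TM9SF1 applies here too. TSSK2 was at 0.240 ± 0.095 FPKM in Ha and at 0.550 ± 0.197 FPKM in La, and TSSK6 at 0.387 ± 0.055 and 0.240 ± 0.098 FPKM.

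At 120 days the order of the members per length was the same in both breeds. TSSK2 was the most abundant, at 358, 377 and 422 FPKM in Hb and at 267, 253 and 196 FPKM in Lb. By mean FPKM it ranked 71 of 21674 rows in Hb and 159 in Lb. TSSK6 followed with 363, 244 and 389 FPKM in Hb and 220, 185 and 159 FPKM in Lb. The ranges of TSSK2 and TSSK6 overlapped within each breed, but compared within the same library TSSK2 was above TSSK6 in 3 of 3 libraries of Lb and in 2 of 3 of Hb, all but Hb1. TSSK6 ranked 95 in Hb and 217 in Lb.

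TSSK3 followed, at 139, 105 and 155 FPKM in Hb and at 108, 73.8 and 81.5 FPKM in Lb. It lay under TSSK6 and over TSSK1B in every library. TSSK1B was at 60.5, 52.0 and 54.7 FPKM in Hb and at 54.8, 66.7 and 56.8 FPKM in Lb. TSSK4 was at 47.8, 48.2 and 35.8 FPKM in Hb and at 34.9, 54.7 and 45.7 FPKM in Lb. All libraries of TSSK4 were under all those of TSSK1B in the same group, by a small margin in Lb (54.7 against 54.8 FPKM).

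TSACC was the lowest member, at 27.7, 30.7 and 46.0 FPKM in Hb and at 16.8, 25.6 and 17.7 FPKM in Lb. It overlapped TSSK4 in Hb and lay below it in Lb. Its rank was 1722 in Hb and 2998 in Lb. TSSK6 thus stood 332 ± 77.4 FPKM in Hb beside 34.8 ± 9.81 FPKM of its co-chaperone, and 188 ± 30.9 FPKM beside 20.04 ± 4.79 FPKM in Lb.

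**Figure D3:**
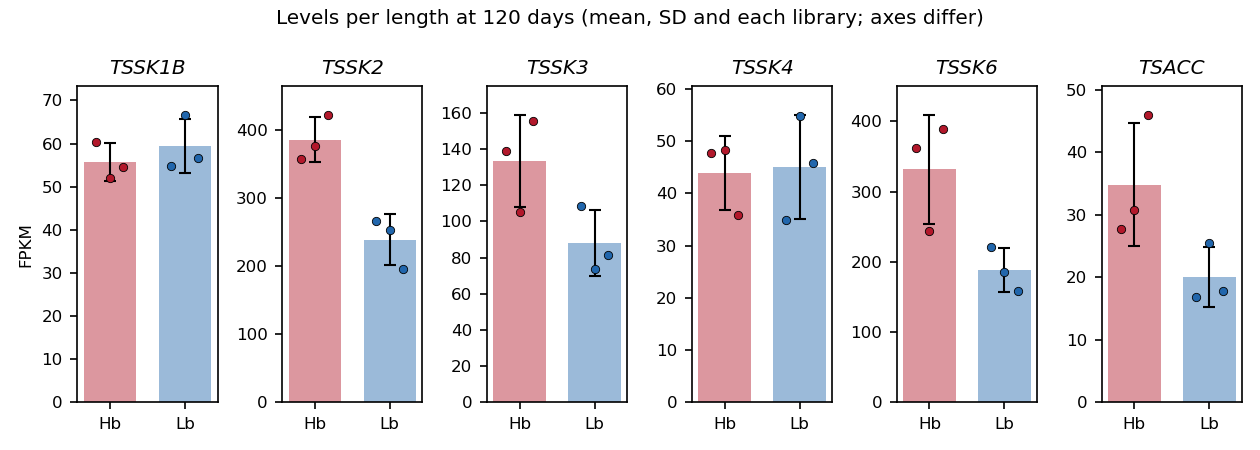
FPKM of each member at 120 days in Hb and Lb, with bars for the mean, error bars for the SD of 3 libraries and points for the libraries; each panel has its own axis from 0. TSSK2, TSSK6 and TSACC are lower in every library of Lb than in any of Hb, while TSSK1B and TSSK4 overlap.

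A further comparison was between the breeds at 120 days. None of the 6 members was called by edgeR in Hb vs Lb, where 3.85% of the 16311 mRNAs tested were called, and none was called by DESeq2 or limma. At an unadjusted p under 0.05 there were 4 members (TSSK2, TSSK3, TSSK6 and TSACC), beside 25.5% of the mRNAs tested. The 628 mRNAs called became 1029 without Hb2, 119 without Hb3, 182 without Lb1, 97 without Lb2 and 139 without Lb3, and 1153 with DESeq2, so the share of 3.85% is itself uncertain. All 6 fold changes were negative in the edgeR fit, that is, lower in Lb, but that of TSSK1B was positive with library totals only and with limma on FPKM, and that of TSSK4 was positive with limma on FPKM. The members separated into 4 with log2 fold changes between −0.94 and −0.72 and a pair, TSSK1B and TSSK4, near 0.

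TSSK2 averaged 686 ± 68.8 CPM in Hb and 383 ± 81.1 CPM in Lb, without overlap. Its log2 fold change was −0.80 ± 0.17, with an adjusted p of 0.0422, and it missed the call because the fold was under the threshold. Of the mRNAs tested, 2.22% had an adjusted p under 0.05 at any fold and were lower in Lb. The adjusted p was over 0.05 when any library but Hb2 was left out, and ranged from 0.000904 to 0.134 over all alternatives, while the fold stayed negative.

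TSSK6 averaged 455 ± 128 CPM in Hb and 230 ± 49.3 CPM in Lb, with a log2 fold change of −0.94 ± 0.23 (adjusted p = 0.0593). Without Hb2, the library of Hb with the lowest TSSK6, the fold change was −1.14 and TSSK6 was called (adjusted p = 0.0224, with a range from 0.00273 to 0.177 over the alternatives). TSACC averaged 34.0 ± 9.91 CPM in Hb and 17.7 ± 4.80 CPM in Lb, with a log2 fold change of −0.90 ± 0.27 (adjusted p = 0.0864). The kinase and its co-chaperone thus had fold changes within 1 SE of each other.

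TSSK3 averaged 179 ± 42.6 CPM in Hb and 105 ± 24.9 CPM in Lb, with a log2 fold change of −0.72 ± 0.22 (adjusted p = 0.0942). Only 1 library of Lb, Lb1, reached into the range of Hb. Of the 6 members, 3 were without overlap and lower in Lb (TSSK2, TSSK6 and TSACC), as were 16.2% of the mRNAs tested.

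TSSK1B averaged 101 ± 14.7 CPM in Hb and 96.4 ± 13.9 CPM in Lb, a log2 fold change of −0.025 ± 0.16 (adjusted p = 0.937). TSSK4 averaged 105 ± 16.4 CPM in Hb and 96.8 ± 19.9 CPM in Lb, a log2 fold change of −0.075 ± 0.19 (adjusted p = 0.831). For both, libraries of the breeds were interspersed.

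Summed over the 5 kinases, the level was 967, 826 and 1057 FPKM in Hb and 685, 633 and 539 FPKM in Lb. The libraries did not overlap, with means of 950 ± 117 and 619 ± 74.1 FPKM (exact permutation p = 0.1, two-sided, the smallest possible). TSSK2 made up 40.8 ± 4.39% of this sum in Hb and 38.5 ± 1.83% in Lb, and TSSK6 34.6 ± 4.41% and 30.3 ± 1.65%. TSSK3 made up 13.9 ± 1.05% and 14.2 ± 2.23%. TSSK4 made up 4.72 ± 1.24% in Hb and 7.40 ± 2.003% in Lb, with overlapping libraries (exact permutation p = 0.2).

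TSSK1B made up 6.25%, 6.29% and 5.17% of the sum in Hb and 7.999%, 10.5% and 10.5% in Lb. Its shares were higher in every library of Lb, which restates the levels given above and is no further evidence. Set against its neighbour, TSSK1B was at 16.9%, 13.8% and 12.9% of the FPKM of TSSK2 in Hb and at 20.5%, 26.3% and 28.9% in Lb. The shares and this ratio were chosen after the values were seen. For the ratio the groups did not overlap (14.6 ± 2.09% against 25.2 ± 4.28%, exact permutation p = 0.1). Reads shared by the paralogs could have been divided differently between libraries, which was not tested.

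Levels of cell markers are given beside these values. The summed CPM of 9 spermatid markers, of which PRM1 was the most abundant and none was at 0 throughout a group, was 5928, 5456 and 7641 in Hb and 3899, 3197 and 2943 in Lb. All libraries of Lb were below those of Hb for this sum, as for TSSK2, TSSK6 and TSACC. Taken singly, PRM1, ODF1 and AKAP4 were lower in Lb without overlap, as were 16.2% of the mRNAs tested. PRM2, TNP1, TNP2, ACRV1, SPACA1 and SPACA3 overlapped. At 30 days the sum was 4.61, 5.25 and 6.08 CPM in Ha and 8.69, 7.43 and 4.33 CPM in La. The median log2 fold change of the spermatid markers in Hb vs Lb was −0.79, beside 0.0044 for all mRNAs, and 1 of 9, AKAP4, was called lower in Lb. ODF1 had a log2 fold change of −0.79 ± 0.15 (adjusted p = 0.0275).

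Relative to the summed spermatid markers of the same library, TSSK2 was at log2 ratios of −3.13, −3.13 and −3.33 in Hb and −3.15, −2.93 and −3.34 in Lb. The breeds overlapped on this scale and differed by 0.058 in the mean. The differences were −0.047 for TSSK6, −0.022 for TSACC and 0.16 for TSSK3, all with overlapping libraries. TSSK1B was at −5.67, −5.97 and −6.26 in Hb and at −5.41, −4.83 and −5.11 in Lb. It was higher relative to the summed markers in every library of Lb, by 0.85 in the mean (exact permutation p = 0.1, and 0.6 after Benjamini-Hochberg adjustment over 6 members). TSSK4 was higher by 0.79 with 1 library of Lb among those of Hb (exact permutation p = 0.2, adjusted 0.6). The sum was carried by PRM1 and AKAP4, which averaged 2398 and 1661 CPM in Hb, and some other markers had smaller fold changes, such as −0.33 ± 0.20 for ACRV1. Checks with markers weighing equally were added after the values were seen. With all 9, TSSK1B overlapped between the breeds (difference 0.68, exact permutation p = 0.3), as did the other 5 members. SPACA3, however, was at 0 in Hb1 and in Lb2. With the 8 markers above 0 in every 120-day library, chosen after that overlap was seen, TSSK1B was higher in Lb without overlap (difference 0.65, exact permutation p = 0.1, adjusted 0.6), and the other 5 members overlapped. Against each of the 9 markers singly, the mean ratio was higher in Lb for TSSK1B (by 0.31 to 1.10) and for TSSK4 (by 0.25 to 1.04), in each case without overlap for 4 of 9. TSSK2 and TSSK3 were higher without overlap for 1 of 9, and TSSK6 was lower for 1 of 9. The absence of overlap thus depended on the markers used. The part of spermatid number in the fold changes was not tested.

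**Figure D4:**
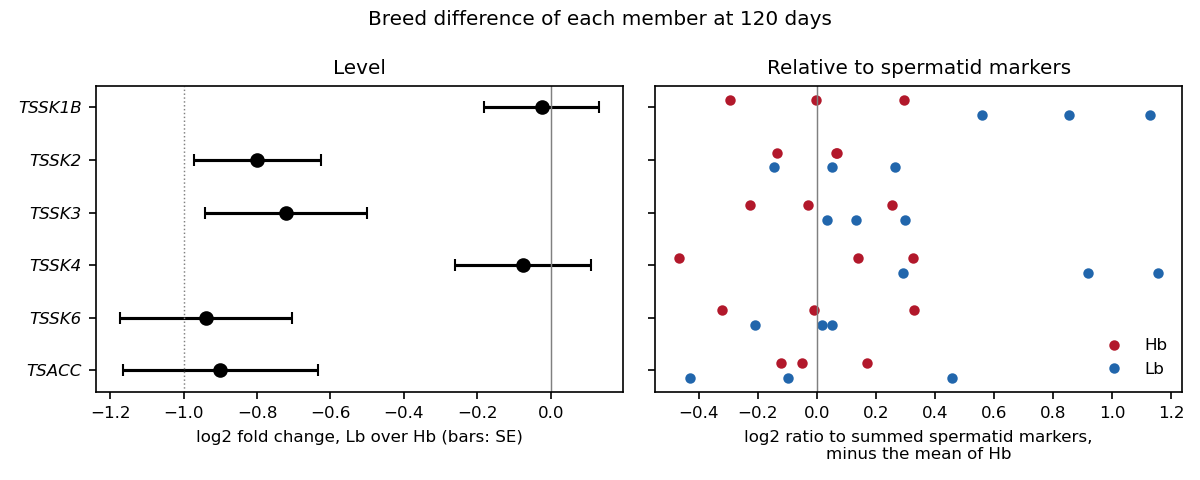
Left, log2 fold change of each member in Hb vs Lb with its SE, where the dotted line marks the fold threshold; right, log2 ratio of each member to the summed spermatid markers in each library, less the mean of Hb. TSSK1B and TSSK4 are near 0 on the left, and TSSK1B lies apart in Lb on the right, relative to the sum.

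Somatic markers differed as well. The summed CPM of 10 peritubular and stromal markers, led by COL3A1, was 601, 352 and 253.5 in Hb and 3071, 2989 and 2545 in Lb, and 5 of the 10 were called higher in Lb. COL1A1 had the smallest adjusted p, with a log2 fold change of 4.53 ± 0.26 (adjusted p = 0.000951), followed by ACTA2 with 1.96 ± 0.24. The summed CPM of 7 Leydig markers was 4021 in Hb1 but 330 and 266 in Hb2 and Hb3, and 4903, 7370 and 3055 in Lb, with INSL3 the most abundant in Hb and CYP17A1 in Lb. Hb1 thus stood apart from its group. Without Hb1 the log2 fold changes in Hb vs Lb were −0.82 for TSSK2, −0.84 for TSSK6, −1.02 for TSACC, −0.66 for TSSK3, 0.070 for TSSK1B and 0.037 for TSSK4, and none was called. Of the other lists, 1 of 5 endothelial markers (PECAM1) and 1 of 5 macrophage markers (AIF1) were called higher in Lb, and no spermatogonial, spermatocyte, Sertoli or Leydig marker was called in that comparison. In Ha vs La, 3 of 8 Sertoli markers (AMH, INHA and FSHR) and 1 of 7 Leydig markers (HSD17B3) were called higher in La. Called lower in La were 4 of 8 spermatocyte markers and 1 of 10 tested spermatogonial markers (DAZL), beside 7.62% of all mRNAs called in either direction.

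Across age, 8 of 9 spermatid markers were tested and all 8 were called higher at 120 days in both breeds, as were 8 of 8 spermatocyte markers. Of 11 spermatogonial markers, 3 were called higher and 6 lower in Ha vs Hb, and 4 higher and 5 lower in La vs Lb. Markers called lower at 120 days in HZ boars and in LC boars were 4 and 4 of 8 Sertoli, 4 and 5 of 7 Leydig, 8 and 5 of 10 stromal, 5 and 3 of 5 endothelial and 5 and 4 of 5 macrophage markers, beside 23.2% and 20.1% of all mRNAs. Of the stromal markers, 1 was called higher in La vs Lb. The part of cell composition in the change of the TSSK kinases with age was not tested.

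Whether the change with age differed between the breeds was tested as an interaction over all 12 libraries, as the fold of LC boars over that of HZ boars. TSSK2 was the 1 member called, beside 5.14% of the 17332 mRNAs tested. Those 890 calls became 437 without Ha1, 501 without Ha2, 566 without Hb3, 577 without La1, 490 without La2, 461 without La3 and 575 without Lb2. Its log2 interaction was −2.05 ± 0.42 (adjusted p = 0.0180), which combined the higher values of La at 30 days with the lower values of Lb at 120 days. It was no longer called without Ha2 (−1.89, adjusted p = 0.0525) or without La1 (−1.72, adjusted p = 0.0518), the range over the alternatives being 0.000210 to 0.0525. The interaction itself ranged from −2.39 (without Ha1) to −1.01 (limma on log2(FPKM + 1)). The 30-day side rested on between 5.82 and 23.9 estimated counts per library.

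Interactions of the other members did not pass the test. That of TSACC was −1.09 ± 0.89 (adjusted p = 0.493) and that of TSSK6 was −0.31 ± 0.58 (adjusted p = 0.790). TSSK4 had −0.13 ± 0.36, TSSK3 −0.086 ± 1.26 and TSSK1B 0.34 ± 1.06, with adjusted p values of at least 0.866, and the sign of TSSK3 turned with library totals only and that of TSSK4 with library totals only and with limma on log2(FPKM + 1). Signs also turned for TSSK1B, TSSK3, TSSK4 and TSSK6 in some fits without 1 library, where TSSK1B ranged from −0.23 to 4.38. Among the spermatid markers, ACRV1 (−2.96) and PRM1 (−1.83 ± 0.44) were called with the same sign as TSSK2. Calls of the opposite sign were found for 5 of 10 stromal markers (COL1A1 4.02 ± 0.35 and ACTA2 2.54 ± 0.25 among them), for PECAM1 (1.92 ± 0.37), for AIF1 (1.94 ± 0.45) and for the spermatogonial markers DAZL (1.53 ± 0.27) and KIT (1.299 ± 0.34). The part of cell composition in the interaction of TSSK2 was not tested.

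Among the substrates, activators and chaperones known for these kinases, 12 of 13 listed genes were in the table. In Ha vs Hb, 7 were called higher at 120 days and 2 lower, with a median log2 fold change of 2.14 beside −0.020 for all mRNAs. In La vs Lb, 7 were called higher and none lower, with a median of 2.45 beside 0.011. Of all mRNAs, 51.4% and 47.6% were called in these comparisons. TSKS was at 0.423, 0.444 and 0.234 CPM in Ha and at 229, 163 and 230 CPM in Hb. In LC boars TSKS was at 0.682, 0 and 0.121 CPM in La and at 143, 152 and 112 CPM in Lb. As for TSSK2, its libraries were lower in Lb without overlap, with a log2 fold change of −0.57 ± 0.17 that did not pass the test (adjusted p = 0.0944). Between the ages, TSKS changed by 9.14 ± 0.30 in Ha vs Hb and by 8.94 ± 0.52 in La vs Lb.

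The HSP90 genes moved in opposite directions with age. HSP90AA1 was called higher at 120 days, with log2 fold changes of 1.62 ± 0.14 and 1.63 ± 0.11, while HSP90AB1 had −1.17 ± 0.18 in Ha vs Hb, where it was called, and −0.94 ± 0.09 in La vs Lb, under the fold threshold. Of the HSP70 chaperones, HSPA1L, which is known from spermatids, went from 4.76 ± 0.30 to 719 ± 187 CPM in HZ boars and from 4.27 ± 0.42 to 326 ± 99.9 CPM in LC boars. HSPA1L was the 1 listed partner called in Hb vs Lb (log2 fold change −1.10 ± 0.25, adjusted p = 0.0484), close to both thresholds. HSPA2, known from spermatocytes, was called higher at 120 days with 3.44 ± 0.27 and 4.13 ± 0.13. HSPA8 was called lower in Ha vs Hb (−1.26 ± 0.15) but not in La vs Lb (−0.32 ± 0.14), and its interaction of 0.92 ± 0.20 was under the fold threshold (adjusted p = 0.0234).

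Of the remaining partners, CREM, a regulator of spermatid transcription, was called higher at 120 days by 3.38 ± 0.16 and 3.28 ± 0.13. CREB1 was not called, with 0.050 ± 0.16 and −0.57 ± 0.18. The tail proteins ODF2 (4.43 ± 0.17 and 4.20 ± 0.11) and SPAG16 (2.65 ± 0.23 and 3.36 ± 0.21) were called higher. PDPK1 had 0.90 ± 0.13 and 0.72 ± 0.10, under the fold threshold, and CDC37 had −0.23 ± 0.11 and 0.11 ± 0.12.

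The AMPK-related kinases, to which the TSSK kinases are related by sequence, were called in both directions. Of 20 in the table, 8 were called higher and 4 lower in Ha vs Hb (median log2 fold change 0.28), and 8 higher and 3 lower in La vs Lb (median 0.11), beside 51.4% and 47.6% of all mRNAs called. NIM1K had the smallest adjusted p in Ha vs Hb, at 0.652 ± 0.113 CPM in Ha and 26.7 ± 1.43 CPM in Hb. It was also the 1 listed relative called in the interaction, with −1.60 ± 0.27 (adjusted p = 0.00893), and had −0.70 ± 0.16 in Hb vs Lb (adjusted p = 0.0495). At the level of the list, none of the 20 was called in Hb vs Lb.

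Other kinases known from male germ cells were called higher at 120 days in 7 of 8 cases in each breed, with medians of 4.75 and 4.30, beside 28.2% and 27.5% of all mRNAs called and higher. Beside the members' range of log2 fold changes, from 4.80 to 11.09 in Ha vs Hb, those called here went from 1.58 ± 0.20 (STK31) to 7.05 ± 0.30 (HIPK4). TESK1 was not called, with 0.84 ± 0.16 and 0.75 ± 0.13. MAK had a called interaction of 1.08 ± 0.29 (adjusted p = 0.0474), opposite in sign to that of TSSK2. This call lay close to both thresholds, and values under the alternatives are not given for MAK. Spermatocyte markers had a median interaction of 0.74, with the smallest adjusted p at 0.0832 (HORMAD1). Of these markers, 4 of 8 were called lower in La than in Ha, beside 7.62% of all mRNAs called in either direction. None of the 8 was called in Hb vs Lb. HIPK4, like TSSK1B and TSSK4, was near 0 there (−0.026 ± 0.18), while TESK2 (−0.85 ± 0.22, adjusted p = 0.0663) and STK33 (−0.82 ± 0.20, adjusted p = 0.0565) were near TSSK2.

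Genes beside the members differed in their change with age. Within 10 kb of the members lay 13 other coding genes and no lncRNA, so no lncRNA was tested with them. On both sides of the TSSK1B and TSSK2 pair, DGCR2 averaged 294 ± 1.76 CPM in Ha and 351 ± 19.7 CPM in Hb, and DGCR14 averaged 34.4 ± 1.78 and 28.1 ± 4.39 CPM. Neither was called in any comparison. BSDC1, whose span holds TSSK3, rose from 17.0 ± 5.12 CPM in Ha to 74.4 ± 2.83 CPM in Hb (log2 fold change 2.15 ± 0.23, adjusted p = 0.000161), and FAM229A was listed at 0 in all libraries. TM9SF1, which overlaps TSSK4, was lower at 120 days, from 157 ± 9.46 CPM in Ha to 94.1 ± 19.98 CPM in Hb (−0.73 ± 0.16, under the fold threshold). CCT3, which overlaps TSACC, was called higher at 120 days with 1.26 ± 0.13 in HZ boars and 1.44 ± 0.10 in LC boars. Also within 10 kb of TSSK4, IPO4 was called higher at 120 days (3.196 ± 0.22 and 3.81 ± 0.16) and so was NEDD8 (4.91 ± 1.22 and 3.89 ± 0.99), the latter at 2.51 CPM in Hb and 2.53 CPM in Lb. The folds of NEDD8 were within 1 SE of those of TSSK4. MDP1 and CHMP4A were not called. Near TSSK6, NDUFA13 and GATAD2A were not called in any comparison, and YJEFN3 had too few counts to be tested.

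The likeness of patterns was measured as the root mean square difference of log2 CPM, each gene centred on its mean over the 12 libraries, among 15134 rows with a gene symbol. The prior count of 2 flattens differences between genes near 0 CPM, so nearness does not mean equal fold changes where a gene was near 0 at 30 days. TSSK1B was nearest to TSSK3 (0.52), followed by FHAD1 (0.58) and ODF3L2 (0.58). TSSK2 was nearest to ACTL7A (0.33), CCIN (0.35) and SPERT (0.36).

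TSSK3 was nearest to FAM166A (0.30), LRRD1 (0.32) and TEKT2 (0.36), of which FAM166A was at 0 CPM in Ha and La and LRRD1 at 0 CPM in La. TSSK6 shared FAM166A as its nearest gene (0.35), followed by TSSK3 (0.38) and USP50 (0.39). TSACC was nearest to ZCCHC13 (0.34), PAQR5 (0.36) and TXNDC8 (0.42). TSSK4 was nearest to RPS29 (0.26), MEA1 (0.29) and IL4I1 (0.30). RPS29 was near 0 at 30 days, with means of 0.0128 CPM in Ha and 3.44 CPM in Hb, while MEA1 averaged 26.8 and 709 CPM and IL4I1 12.9 and 348 CPM.

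Between members, the difference was smallest for TSSK3 and TSSK6 (0.38) and largest for TSSK2 and TSSK4 (2.61). The adjacent genes TSSK1B and TSSK2 differed by 1.04, with 186 rows nearer to TSSK1B than TSSK2 was. TSSK4 was at least 1.31 from every other member. TSACC was nearer to TSSK3 (1.29) than to its partner TSSK6 (1.46). These genes were near 0 CPM at 30 days, so their distances depend largely on the levels at 120 days. In Hb those levels averaged 34.0 CPM for TSACC, 179 CPM for TSSK3 and 455 CPM for TSSK6.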

How the data were processed

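The 12 libraries, 3 in each group, were assigned to groups by their labels. The authors deposited estimated counts, which are not normalized and need not be whole, and FPKM, scaled per kilobase and by mapped fragments and rounded by them. The submitters' processing notes name fastp 0.18.0, Bowtie2 2.2.8, HISAT2 2.1.0 and StringTie 1.3.4. The counting tool is not given in the sources used here. A deposited table of lncRNAs with estimated counts, FPKM and exon positions was used only to look for lncRNAs within 10 kb of the members.

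Estimated counts were rounded to whole numbers, passed through filterByExpr (10 counts at least) and scaled by TMM. Tests were those of the quasi-likelihood method of edgeR 4.0.16 (R 4.3.3), two-sided, with Benjamini-Hochberg adjustment over all tested mRNAs. Each comparison used its 6 libraries, and the interaction all 12. SE is the absolute log2 fold change divided by the square root of F. It fell below counting error for several members with few 30-day counts, so it is not given for their fold changes with age, nor for the interaction of ACRV1. Adjusted p values of such fits rest on the same F and may be too small. The log2 ratios and exact permutation tests (two-sided) were computed with scipy 1.17.1, and log2 CPM used a prior count of 2. The scripts were tested on simulated data. Of the 21674 rows, 20666 had an NCBI gene identifier found in the RefSeq table of Sscrofa11.1, the source of positions. Depth was 17165519 to 23758931 counts per library.

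The members and lists were chosen with earlier results of these data known. Named genes were all members, the partners and germ-cell kinases, the relatives and markers with the 2 smallest adjusted p in a comparison, the 3 nearest patterns per member, and coding neighbours. The ratio of TSSK1B to TSSK2 and the shares of the kinases were added after values were seen. Alternatives were DESeq2 1.42.0, limma 3.58.1 on log2(FPKM + 1) and log2(FPKM + 0.1), other filters and scalings, all 12 libraries in 1 fit, the replicate number as a block, and each library left out. Weighing the spermatid markers equally, with and without SPACA3, and taking them singly were added later, on log2 CPM. Promoter motifs and protein identities were planned and not computed. No 2 libraries of a group agreed within sampling noise.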

Additional observations from a re-analysis of the deposited data

Results flagged for a closer look

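TSSK2 was flagged because its change with age differed between the breeds in the interaction test. Its log2 interaction, the fold of LC boars over that of HZ boars, was −2.05 ± 0.42 in the edgeR test of the difference over 12 libraries (adjusted p = 0.0180). It was not called without Ha2 (adjusted p = 0.0525) or without La1 (0.0518). TSSK2 was higher in all 3 libraries of La than in those of Ha and lower in all 3 of Lb than in those of Hb, but it was called in neither comparison (adjusted p = 0.109 in Ha vs La, and 0.0422 with a fold change under the threshold in Hb vs Lb). The spermatid markers had a median interaction of −1.43, and whether TSSK2 differs apart from them was not tested.

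For MAK, a kinase of male germ cells, the same test gave a log2 interaction of 1.08 ± 0.29 (adjusted p = 0.0474). Both values lay close to the thresholds for a call, and values under the alternatives are not given for MAK. MAK was at 3.34 ± 0.53 CPM in Ha and 0.943 ± 0.152 CPM in La (SD, n = 3), and at 270 ± 53.1 CPM in Hb and 161 ± 26.0 CPM in Lb. The difference between breeds was called at 30 days (log2 fold change −1.83, adjusted p = 0.00485) and not at 120 days (−0.70, adjusted p = 0.0660). Of 8 spermatocyte markers, 4 were also called lower in La (HORMAD1 −1.69, SYCP1 −1.38, SYCP2 −1.29 and PIWIL1 −1.21), beside 7.62% of all mRNAs called in either direction. The median interaction of the 8 was 0.74, with the smallest adjusted p at 0.0832 (HORMAD1). DAZL, a spermatogonial marker, had a called interaction of 1.53. Whether MAK differs apart from these markers was not tested.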

How the results depend on the processing

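Of 446 log2 fold changes of members under the alternatives, 410 kept their direction and their side of the threshold. All 6 members were called and higher at 120 days in both breeds under every alternative run.

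Signs turned only for fold changes that were not called. With library totals only, an alternative chosen after seeing the data, TSSK1B in Hb vs Lb was 0.043, TSSK4 in Ha vs La −0.033, and the interactions of TSSK3 and TSSK4 were 0.074 and 0.027. With limma on log2(FPKM + 0.1), TSSK1B and TSSK4 in Hb vs Lb were 0.091 and 0.027. With limma on log2(FPKM + 1), with and without a filter, they were 0.089 and 0.027, and the interaction of TSSK4 was 0.015. The cause was not tested.

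Over fits without 1 library each, TSSK4 ranged from −0.24 to 0.34 in Ha vs La and from −0.23 to 0.054 in Hb vs Lb, where TSSK1B ranged from −0.13 to 0.070. The interactions ranged from −0.23 to 4.38 for TSSK1B (the latter without La3 and set by the prior count), −0.31 to 0.28 for TSSK3, −0.42 to 0.15 for TSSK4 and −0.53 to 0.069 for TSSK6. That of TSACC ranged from −1.88 to −0.48. The members called ranged from 0 to 1 in Hb vs Lb (TSSK6 without Hb2) and from 0 to 1 in the interaction (TSSK2 lost without Ha2 or La1). The mRNAs called ranged from 97 (without Lb2) to 1029 (without Hb2) in Hb vs Lb, against 628 with all libraries, and from 437 to 1242 in the interaction, against 890.

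The mRNAs called in Hb vs Lb were 1153 with DESeq2, 1258 with all 12 libraries in 1 fit and 364 with limma on log2(FPKM + 1) without a filter. In Ha vs La, limma on log2(FPKM + 1) called 508 with a filter and 486 without, against 1192. In the interaction, DESeq2 called 1363 and limma on log2(FPKM + 0.1) called 1370.

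With every spermatid marker weighing equally, also chosen after seeing the data, the difference between breeds relative to those markers was 0.68 for TSSK1B against 0.85 with summed markers, and the breeds overlapped. Without SPACA3, at 0 in 2 of the 120-day libraries, it was 0.65 and the breeds did not overlap. For TSSK2 it was −0.11 with all markers and −0.13 without SPACA3, against 0.058.

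Libraries with the same replicate number were not paired by the labels, and correlations of their deviations from group means were at most 0.053. With the replicate number as a block, 154 mRNAs were called in Hb vs Lb, together with 0 members. The members called were 6 across age in each breed, 0 between breeds at 30 days and 1 in the interaction, as without the block.

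With library totals only, the median log2 fold change of all mRNAs moved from −0.020 to −0.32 in Ha vs Hb, from 0.011 to −0.16 in La vs Lb and from 0.020 to 0.17 in the interaction. The share of calls that were higher in the second group moved from 54.8% to 44.1% in Ha vs Hb, and the share of positive calls in the interaction from 68.4% to 81.6%. With limma on log2(FPKM + 0.1) these shares were 39.3% in Ha vs Hb, 46.9% against 57.7% in La vs Lb and 79.0% against 68.8% in Hb vs Lb. With limma on log2(FPKM + 1) they were 42.6% in Ha vs Hb and 79.8% in Hb vs Lb.

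Depth limits the 30-day values, where 5 of the 6 members had under 25 counts in every library. Their fold changes across age are uncertain beyond the counting intervals: over fits without 1 library each, that of TSSK1B in La vs Lb ranged from 9.46 upward, with no upper bound without La3 (14.01, set by the prior count), and that of TSACC in Ha vs Hb from 7.70 to 9.06 (without Ha2). Fold changes were lowest with limma on log2(FPKM + 1): in HZ boars 5.70 for TSSK1B, 8.28 for TSSK2, 6.85 for TSSK3, 4.08 for TSSK4, 7.88 for TSSK6 and 4.93 for TSACC, and in LC boars 5.83, 7.27, 6.34, 4.09, 7.24 and 4.16 in the same order. Small differences between breeds at 30 days would not be detected for members at so few counts.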
